A study of Canis lupus familiaris with 10 samples.

Results

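The genes described here take glucose into the cell, break it down to pyruvate, and release lactate or pass pyruvate to the mitochondrion. They were chosen as a list of 36 genes, each read through 1 probe set of the array, the one of highest mean signal over all 10 arrays. Of the 36 genes, 34 had a probe set that the array annotation names for that gene alone, among 15115 genes so named on the whole array, and 33 passed the filter on dim probe sets. LDHB was named only on probe sets shared with other genes, and TALDO1 on none, so neither has a value here.

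RNA came from cultured cells of splenic hemangiosarcoma, a malignant tumor of the vessel wall, from 10 dogs, with 1 array per dog. The Golden Retriever group held 6 dogs, the males CHAD-G4, CHAD-G8 and Tucker and the females CHAD-G6, Frog and Journey. The non-Golden Retriever group held 3 males, CHAD-P9 (Portugese Water Dog), Dal-4 (Dalmation) and Joey (Rottweiler). DD-1, a male Golden mix and the offspring of a Golden Retriever and a Great Pyrenees, is called the F1 dog and was in neither group. All were pet dogs with tumors that arose spontaneously, and Frog and Journey shared recent ancestors. The cells were untreated and were taken at the earliest available passages, so all groups share growth in culture, and no culture was arrayed again. Each SD therefore holds the differences between dogs together with those that culture and hybridization add.

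Glucose enters through facilitative transporters and is trapped in the cell by hexokinase. Phosphofructokinase sets the pace of the chain that follows, which ends in pyruvate; lactate dehydrogenase turns pyruvate into lactate, which leaves through monocarboxylate transporters. Pyruvate dehydrogenase kinases keep pyruvate out of the mitochondrion, and the pentose phosphate branch diverts glucose to ribose and reducing power. Proliferating and tumor cells are known for strong use of this chain even where oxygen is plentiful, and the hypoxia-inducible factors raise many of its genes.

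Values are log2 signals, in which 1 unit is a doubling; a signal below the 40th percentile of its array, which lay between 5.02 and 5.16, is called dim. Signals of different probe sets are not set against each other, since each probe set has its own brightness. Several cultures stood apart. Of 12 endothelial markers, 5 (KDR, CDH5, TIE1, CLDN5 and CD34) were above the 40th percentile in all 10 dogs. Only KDR, at 6.51 to 8.25, was well clear of it. CDH5 had 5.15 to 5.41 and TIE1 5.06 to 5.72, below the median signal of every array (5.77 to 5.83). CD34 had 5.53 to 5.95 and CLDN5 5.596 to 6.295. FLT1 was above the 40th percentile in 4 dogs, VWF in 2 and ENG in 1, and 4 (PECAM1, EMCN, ESAM and TEK) were dim in all dogs. All 10 fibroblast and mural markers passed the filter, and 9 of them were above the 40th percentile in all 10 dogs. LUM, a matrix proteoglycan, had 4.40 in Dal-4 against 12.47 to 14.08 in the other dogs, and ACTA2, smooth muscle actin, had 6.39 in CHAD-G4 against 9.73 to 14.13. A probe set that the annotation names for EIF2S3, a gene on the X chromosome, had 10.15 to 10.60 in 6 males. It was dim in the 3 females, at 3.08 to 3.33, and in Dal-4, a male by record, at 2.95. On this probe set Dal-4 thus lay with the females and not with the other males. What this probe set reads was not tested, and Dal-4 was kept as a male. The other 2 probe sets of EIF2S3 did not separate the sexes, with 12.98 to 13.23 and 12.01 to 12.12 in females, 12.56 and 11.47 in Dal-4, and 12.22 to 13.18 and 10.89 to 12.19 in the other males. In cultures of mixed cells, fewer cells of a type and less RNA per cell cannot be told apart.

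Both glucose transporters were above the 40th percentile in all 10 dogs and varied widely between them. SLC2A1 (GLUT1), the transporter of most dividing cells, ran from 10.78 to 12.20 in Golden Retrievers with a median of 11.06. It was 11.19 in CHAD-P9, 8.82 in Dal-4 and 11.21 in Joey, and 11.45 in the F1 dog. Dal-4 was alone at the low end, and the other 9 dogs of all groups overlapped. The log2 difference between the breed groups, positive where Golden Retrievers were higher, was 0.94 (SE 0.577, adjusted p = 0.794), and it was 0.15 with Dal-4 left out. SLC2A3 (GLUT3), a transporter of high affinity, had the widest range of any member, 16.7-fold between dogs, from 8.002 in Dal-4 to 12.07 in CHAD-G4. It lay from 8.70 to 10.68 in the other dogs, and its groups overlapped (difference 0.80, SE 0.775, adjusted p = 0.867, with 0.20 without Dal-4, 0.39 without CHAD-G4 and 1.54 without CHAD-P9). The lowest dog differed between the other tested probe sets of SLC2A3. Tucker was lowest on some, at 4.68 and 4.24, with Dal-4 at 6.02 and 5.20 and differences of 0.28 and 0.49. Dal-4 was lowest on another, at 7.52, with a difference of 0.69. The transporter and the hexokinase that are both known targets of hypoxia, SLC2A1 and HK2, moved together over the 10 dogs (r = 0.73, permutation p = 0.0131, adjusted 0.0276, and rho = 0.84, permutation p = 0.00374, adjusted 0.0228, each adjusted over the 19 pairs of members examined). For SLC2A1 with SLC2A3 the relation did not pass (r = 0.46, permutation p = 0.175, adjusted 0.222, and rho = 0.39, permutation p = 0.262, adjusted 0.332).

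Of the hexokinases, HK1, the form of most tissues, and HK2, the form of muscle and many tumors, were above the 40th percentile in every dog. HK1 was 8.89 to 10.55 in Golden Retrievers (median 9.95), 9.94 in CHAD-P9, 9.09 in Dal-4 and 8.82 in Joey, and highest in the F1 dog at 10.77. Joey, Tucker and Dal-4 were the lowest 3 dogs. HK2 was 7.05 to 8.95 in Golden Retrievers (median 8.27), 7.44 in CHAD-P9, 6.58 in Dal-4 and 8.003 in Joey, and 8.41 in the F1 dog. Frog was highest and Dal-4 lowest for HK2, so the dogs did not fall in the order they had for HK1 (r = 0.53, permutation p = 0.118, adjusted 0.163, and rho = 0.42, permutation p = 0.233, adjusted 0.332). Differences between the breed groups were 0.62 (SE 0.361) for HK1 and 0.70 (SE 0.436) for HK2, and neither passed the test (adjusted p = 0.787 and 0.797). For HK1 it was 0.39 without Joey and 0.95 without CHAD-P9, and for HK2 0.32 without Dal-4. GPI, which turns glucose 6-phosphate into fructose 6-phosphate, was 10.98 in Joey and 11.50 in Tucker, and 12.17 to 12.84 in the other 8 dogs.

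**Figure D1:**
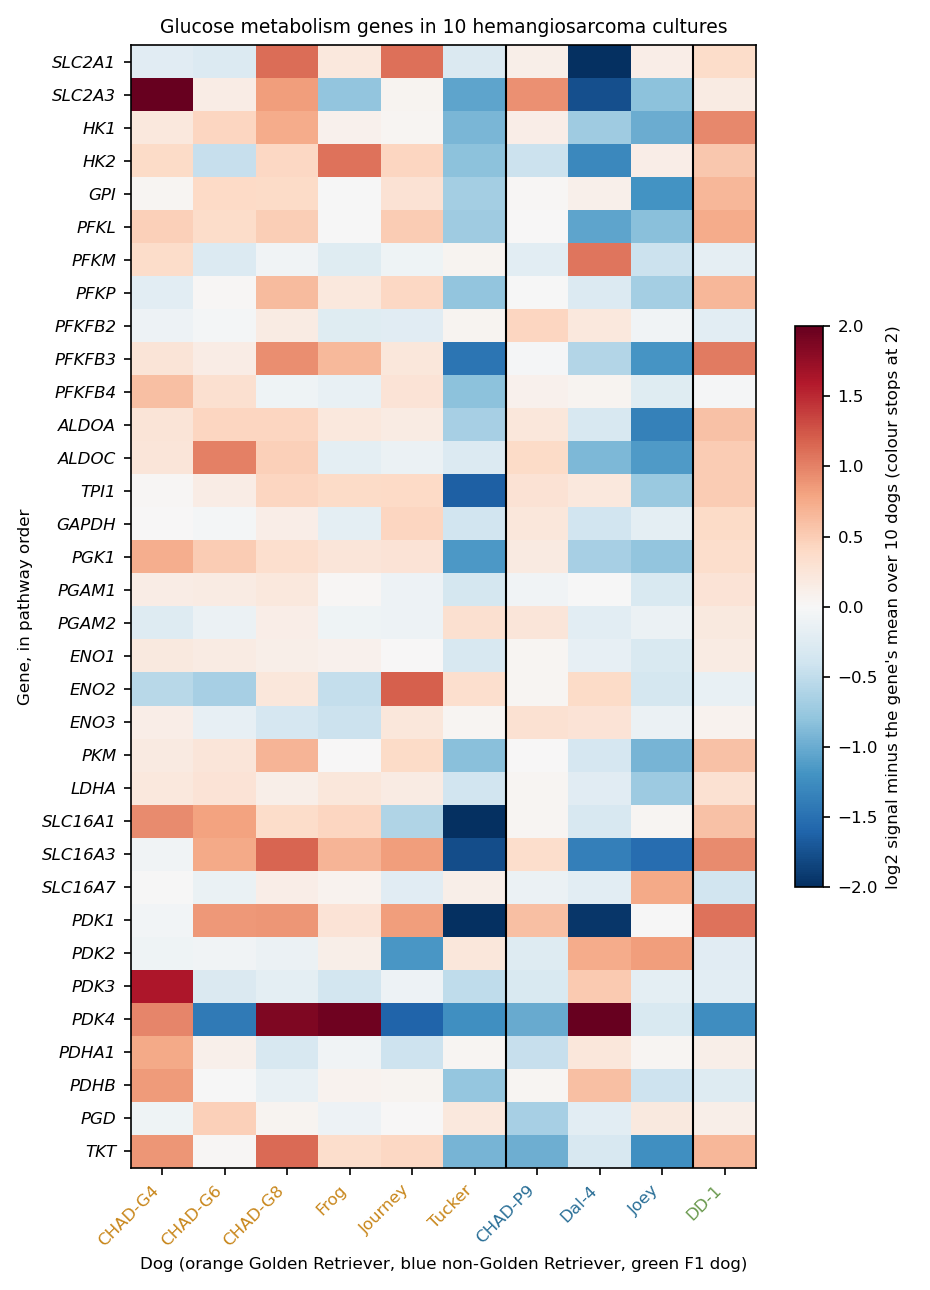
Log2 signal of the 34 genes with a probe set (rows, in pathway order) in each of the 10 dogs (columns, by group), as the difference from the gene's mean over the dogs; red is higher, blue is lower, and colors stop at 2 log2 units. Tucker, Joey and, for some genes, Dal-4 are blue down much of the chain, and the F1 dog is red.

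All 3 phosphofructokinase subunits were above the 40th percentile in every dog, but the dogs did not fall in the same order for each. PFKL, the liver-type subunit, was 10.12 to 11.34 in Golden Retrievers (median 11.25), 10.85 in CHAD-P9, 9.78 in Dal-4 and 9.998 in Joey, and 11.58 in the F1 dog. In 4 of 6 Golden Retrievers it lay above every non-Golden Retriever, Frog lay just under CHAD-P9, and Tucker lay between CHAD-P9 and Joey. PFKL was 1.75-fold higher in Golden Retrievers, a log2 difference of 0.81 (SE 0.326) that did not pass the adjusted test (unadjusted p = 0.0334, adjusted p = 0.774; exact permutation p over 84 splits = 0.0476). PFKP, the platelet-type subunit, moved with PFKL (r = 0.81, permutation p = 0.00569, adjusted 0.0154, and rho = 0.83, permutation p = 0.00480, adjusted 0.0228) and was 10.11 to 11.55. PFKM, the muscle-type subunit, was instead highest in Dal-4 at 10.49, against 8.99 to 9.78 in the others, and its relation to PFKP did not pass (r = -0.19, permutation p = 0.620, adjusted 0.693, and rho = -0.15, permutation p = 0.683, adjusted 0.763). Dal-4 thus had the lowest PFKL and the highest PFKM of the 10 dogs.

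The PFKFB enzymes make and break down fructose 2,6-bisphosphate, the strongest activator of phosphofructokinase. PFKFB3, the form with the highest kinase activity, was above the 40th percentile in all dogs, PFKFB4 in 7, and PFKFB2 in 0, so PFKFB2 was not tested. PFKFB3 was 7.41 in Tucker and 9.01 to 9.81 in the other 5 Golden Retrievers. It was 8.85 in CHAD-P9, 8.28 in Dal-4 and 7.69 in Joey, and highest in the F1 dog at 9.90. All Golden Retrievers but Tucker exceeded all non-Golden Retrievers, and with Tucker the log2 difference was 0.73 (SE 0.480, adjusted p = 0.807, and 0.43 without Joey). PFKFB4 stayed near the 40th percentile, from 4.40 in Tucker to 5.82 in CHAD-G4 (difference 0.057, SE 0.281).

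From aldolase to enolase, most enzymes of the common form were lowest in the same dogs, Tucker and Joey. ALDOA, the main aldolase outside liver and brain, was 11.50 in Joey, 12.19 in Tucker and 12.52 in Dal-4, and 13.02 to 13.44 in the other 7 dogs. ALDOC, the brain-type form, was also above the 40th percentile in all dogs and moved with ALDOA (r = 0.85, permutation p = 0.00149, adjusted 0.00708, and rho = 0.93, permutation p = 0.000360, adjusted 0.00684), with its lowest value, 9.09, in Joey and its highest, 11.23, in CHAD-G6. TPI1, which interconverts the pair of sugars that aldolase makes, was 11.01 in Tucker, 11.90 in Joey and 12.67 to 13.15 elsewhere. Tucker and Joey lay in opposite breed groups, and the log2 difference of TPI1 was 0.041 (SE 0.462). PGK1, the first step that yields ATP, was 11.59 in Tucker, 11.96 in Joey, 12.07 in Dal-4 and 12.93 to 13.46 in the rest.

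GAPDH was read through a probe set that was only a little above the 40th percentile, at 5.82 to 6.64. The array also carries GAPDH control probe sets, which had 13.17 to 14.17 and were lowest in Tucker or Joey. PGAM1, the mutase of most tissues, varied little on the probe set used here (13.31 in Tucker to 13.93 in the F1 dog). Its other tested probe set ranged more widely, from 11.97 in Tucker to 13.39 in the F1 dog, by 1.42 log2 units against 0.63. PGAM2, the muscle form, had 5.61 to 6.18 with no dog apart. ENO1, the common enolase, had 13.74 in Tucker and 13.74 in Joey against 13.90 to 14.25. Its other 2 tested probe sets ranged more widely between dogs, by 1.23 and 1.46 log2 units against 0.51. ENO2, the neuronal form, was highest in Journey at 10.01 and 8.16 to 9.19 elsewhere, and over the 10 dogs its relation to ENO1 did not pass (r = -0.30, permutation p = 0.406, adjusted 0.482, and rho = -0.65, permutation p = 0.0483, adjusted 0.0931). ENO3, the muscle form, had 6.93 to 7.67.

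The end of the chain and lactate export had the same low dogs. PKM, the pyruvate kinase of non-hepatic cells, was 9.76 in Joey and 9.86 in Tucker, against 10.35 to 11.37, and PKLR, the liver and red cell form, was dim in all dogs. The probe sets were not used to tell the spliced M1 and M2 forms of PKM apart. LDHA, which makes lactate, was 13.57 to 13.73 in 5 Golden Retrievers and 13.08 in Tucker. It was 13.49 in CHAD-P9, 13.24 in Dal-4 and 12.74 in Joey, so that 5 of 6 Golden Retrievers lay above all non-Golden Retrievers (difference 0.41, SE 0.205, adjusted p = 0.776; exact permutation p = 0.0595). Without Joey the difference was 0.20. On the other tested probe set of LDHA, 2 of 6 Golden Retrievers lay above all non-Golden Retrievers, with CHAD-P9 at 13.40 (difference 0.47, exact permutation p = 0.143).

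Of the lactate transporters, SLC16A3 (MCT4), the exporter of glycolytic cells, was 6.86 to 9.81 in Golden Retrievers with a median of 9.36. It was 8.996 in CHAD-P9, 7.27 in Dal-4 and 7.11 in Joey, and 9.58 in the F1 dog. Tucker, Joey and Dal-4 lay between 6.86 and 7.27, and the other 7 dogs from 8.56 to 9.81, a gap that crossed both breed groups. The group means were 8.90 ± 1.08 (SD, n = 6) for the Golden Retrievers against 7.79 ± 1.04 (SD, n = 3) for the other group, and the log2 difference of 1.11 (SE 0.660) did not pass the test (adjusted p = 0.790). It was 1.52 without Tucker and 1.71 without CHAD-P9. SLC16A1 (MCT1), which carries lactate in both directions, was dim in Tucker at 4.71 and 6.39 to 7.94 in the other 9 dogs. SLC16A7 (MCT2) was near the 40th percentile throughout, at 4.75 to 5.27 in 9 dogs and 5.88 in Joey. LDHA and SLC16A3 moved together (r = 0.88, permutation p = 0.00294, adjusted 0.0112, and rho = 0.70, permutation p = 0.0315, adjusted 0.0749), and SLC16A1 with SLC16A3 did not pass (r = 0.61, permutation p = 0.0468, adjusted 0.0741, and rho = 0.41, permutation p = 0.245, adjusted 0.332).

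**Figure D2:**
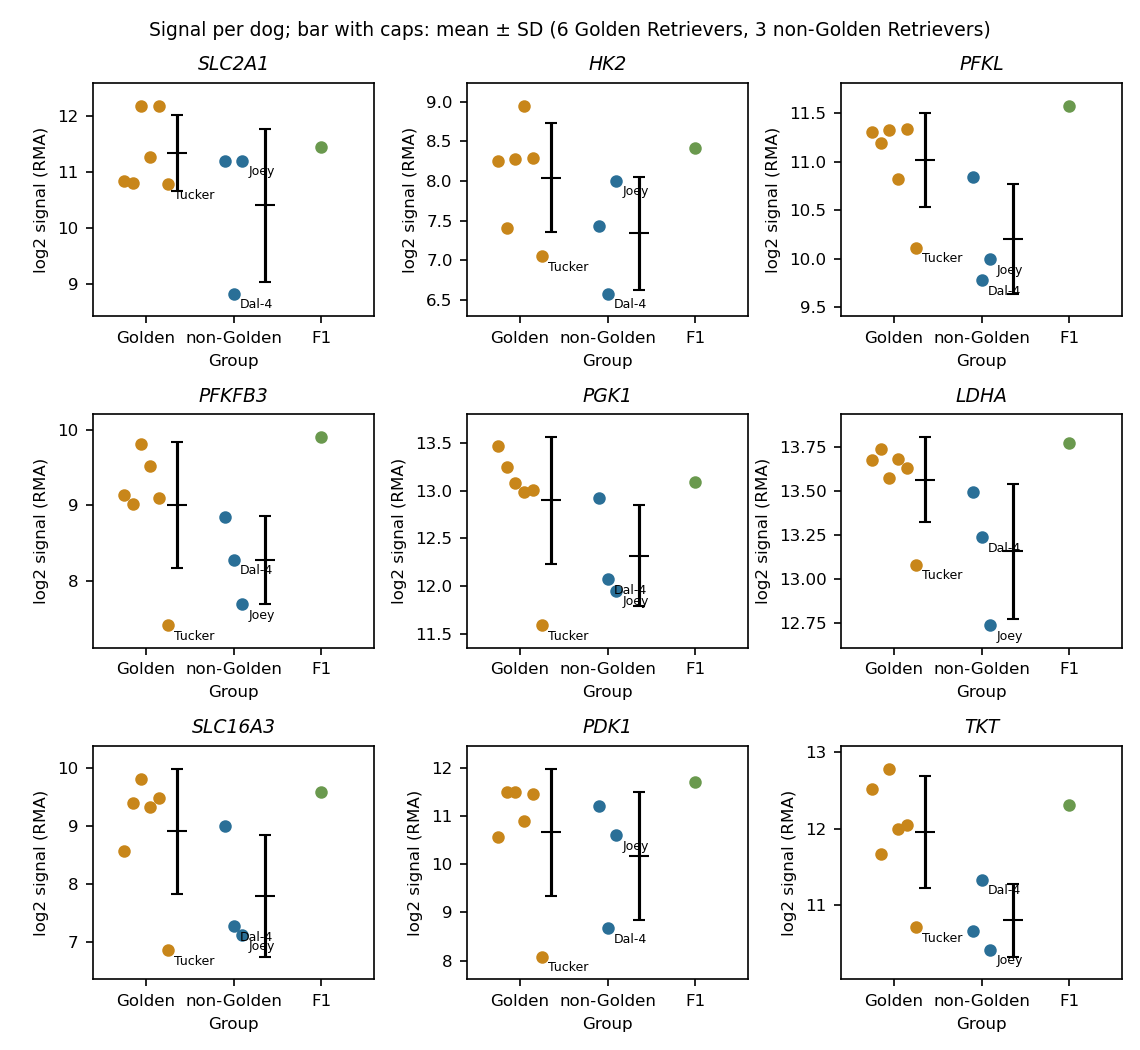
Log2 signal of 9 genes in each dog by group, with the mean and SD of the 6 Golden Retrievers and of the 3 non-Golden Retrievers; Tucker, Joey and Dal-4 are labelled. Tucker lies apart from the other Golden Retrievers for PFKFB3, PGK1, LDHA, SLC16A3 and PDK1, and Dal-4 is lowest for SLC2A1, HK2 and PFKL.

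The pyruvate dehydrogenase kinases, which switch off the entry of pyruvate into the mitochondrion, differed in which dogs had them high. PDK1, the kinase induced by hypoxia, was 8.08 in Tucker and 8.67 in Dal-4, against 10.57 to 11.71 in the other 8 dogs, a range of 12.3-fold. The log2 difference was 0.50 (SE 0.814, adjusted p = 0.937), 1.02 without Tucker, 1.03 without CHAD-P9, 0.33 without CHAD-G8 and -0.25 without Dal-4. Joey, low for the enzymes above, was inside that upper range at 10.61. PDK2 was 5.68 in Journey and highest in Joey and Dal-4, at 7.68 and 7.58. Among the members tested it had the most negative breed difference, -0.62 (SE 0.340, adjusted p = 0.784, and -0.97 without CHAD-P9). On the second probe set of PDK2, Tucker was highest at 7.045, with Dal-4 at 7.031 and Joey at 7.016, and the difference was -0.32. PDK3 was 10.27 in CHAD-G4 and 8.16 to 9.19 in the others, and over the 10 dogs its relation to PDK1 did not pass (r = -0.12, permutation p = 0.738, adjusted 0.738, and rho = -0.0061, permutation p = 1.00, adjusted 1.00).

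PDK4, the kinase induced by fasting, divided the dogs without regard to breed. It was 6.41 in CHAD-G4, 7.30 in CHAD-G8, 7.38 in Frog and 7.43 in Dal-4, and 3.83 to 5.12 in the other 6 dogs, of which only Joey was above the 40th percentile. Dal-4 therefore had low PDK1 with high PDK4, Tucker had both low, and CHAD-G8 had both high. PDHA1, the subunit these kinases phosphorylate, and PDHB, its partner, were above the 40th percentile in all dogs, at 10.69 to 11.90 and 10.02 to 11.63, both highest in CHAD-G4. The other 2 tested probe sets of PDHA1 were instead highest in Dal-4, with CHAD-G4 next at 10.75 and 10.64.

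In the pentose phosphate branch, TKT, the transketolase that links it back to glycolysis, had the largest breed difference of all members. It was 10.71 to 12.78 in Golden Retrievers (median 12.03), 10.66 in CHAD-P9, 11.33 in Dal-4 and 10.42 in Joey, and 12.30 in the F1 dog. In 5 of 6 Golden Retrievers TKT lay above all non-Golden Retrievers, and Tucker lay among them. The means were 11.96 ± 0.728 (SD, n = 6) for the Golden Retrievers against 10.81 ± 0.473 (SD, n = 3) for the other group, 2.22-fold apart (log2 difference 1.15, SE 0.418), with an unadjusted p of 0.0215, an adjusted p of 0.774 and an exact permutation p of 0.0476. PGD, the second dehydrogenase of the branch, was lowest in CHAD-P9 at 10.78 and 11.23 to 11.92 elsewhere, and its relation to TKT did not pass (r = 0.14, permutation p = 0.709, adjusted 0.738, and rho = -0.030, permutation p = 0.946, adjusted 0.998).

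By breed, none of the 33 genes passed the test across all probe sets: 0 were called at an adjusted p under 0.05 by limma, where 0.00372% of the 26891 tested probe sets were called. At an unadjusted p under 0.05, 2 of 33 (PFKL and TKT, both higher in Golden Retrievers) passed by limma, or 6.06%, beside 6.32% of all tested probe sets, which is near the background share. Counting upward calls alone, the background was 1.81%. By the plain test that the study's methods name (called the methods' t-test), 1 member, TKT, passed, beside 5.65% of all tested probe sets. The breed groups lay apart without overlap in 0 of 33 members, against 2.45% of all tested probe sets. Most members lay higher in Golden Retrievers, 26 of 33, or 78.8%, against 47.2% of all tested probe sets, and their median difference was 0.32 against -0.017. These genes move together between dogs, so the count is not one of 33 separate measurements.

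The breed count turned on which dogs were included. With Tucker left out, 11 of 33 members had an unadjusted p under 0.05, all of them higher in Golden Retrievers, where the background was 6.19% of all tested probe sets. They were HK1, HK2, PFKL, PFKP, PFKFB3, ALDOA, PGK1, PKM, LDHA, SLC16A3 and TKT, with differences of 0.50 for LDHA to 1.52 for SLC16A3 and adjusted p of 0.780 for each. With CHAD-P9 left out, 7 did (HK1, PFKL, ALDOA, ALDOC, LDHA and SLC16A3, higher, and PDK2, lower), against a background of 11.7%. With both Tucker and Joey left out 6 did, against 5.15%. TKT alone was called without CHAD-G4, CHAD-G6, CHAD-G8, Journey or Dal-4, and by the methods' t-test, against backgrounds of 3.6% to 7.14%. Without Joey neither PFKL nor TKT was called, and the 1 gene called was PGD, against a background of 5.86%. Among males alone, with Dal-4 kept as a male by record, 0 were called by limma, against a background of 5.91%. No setting brought a member to an adjusted p under 0.05.

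**Figure D3:**
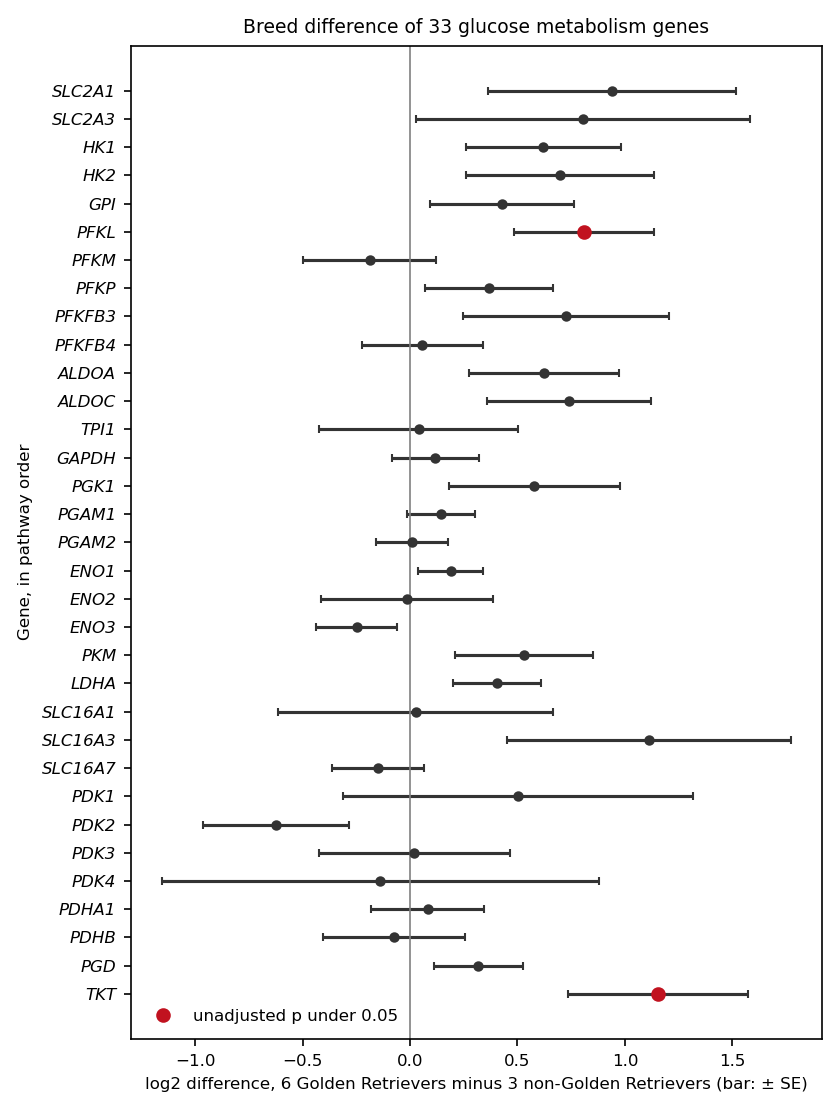
Log2 difference of each of the 33 tested genes, 6 Golden Retrievers minus 3 non-Golden Retrievers, with bars of 1 SE from the limma fit; genes at an unadjusted p under 0.05 are red. The differences run from -0.62 for PDK2 to 1.15 for TKT, and 26 of 33 lie right of 0.

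The same dogs, from both breed groups, were low for gene after gene. Tucker was among the 2 lowest dogs for 21 of 33 members, or 63.6%, beside 24.7% of all tested probe sets. Joey was among them for 18, or 54.5%, beside 22.6%. Tucker and Joey together were the lowest pair for 14 members (HK1, GPI, PFKP, PFKFB3, PFKFB4, ALDOA, TPI1, PGK1, PGAM1, ENO1, PKM, LDHA, SLC16A3 and PDHB), or 42.4%, beside 4.69% of all tested probe sets. Other tested probe sets of these genes had the same lowest pair, except for a probe set of HK1 and a probe set of PGK1. On that of HK1, Tucker had 7.73, Joey 7.26 and Dal-4, the lowest, 7.24. On that of PGK1, Tucker had 5.41, Joey 5.11 and Dal-4, the lowest, 4.38. At the other end, the F1 dog was highest for 10 members, or 30.3%, beside 4.96%. The mean signal of 9 enzymes of the central chain (GPI, ALDOA, TPI1, GAPDH, PGK1, PGAM1, ENO1, PKM and LDHA), each centred on its mean over the dogs, was -0.71 in Tucker, -0.73 in Joey, -0.20 in Dal-4, 0.42 in the F1 dog and 0.11 to 0.32 in the other 6. By breed this mean was 0.066 ± 0.385 (SD, n = 6) for the Golden Retrievers against -0.27 ± 0.422 (SD, n = 3) for the other group.

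Other measures were set beside these values. The GAPDH control probe sets at the 3′ end exceeded those at the 5′ end, a sign of RNA breakdown or short copies, by 0.62 log2 units in Tucker, 0.23 in Joey and 0.025 to 0.26 in the other 8 dogs. For actin the same contrast was 0.43 in Tucker, 0.042 in Joey and -0.68 to -0.17 in the others. EPCAM, an epithelial adhesion protein, had 8.03 in Tucker and 8.87 in Joey, and 3.62 to 4.72 in the other 8 dogs. Of the 5 epithelial markers listed, 4 had a probe set and 2, the keratins, were tested. CDH1 was dim in all 10 dogs, and KRT8 and KRT18 ranged from 3.82 to 11.67 and 3.57 to 13.22 without setting these 2 dogs apart. The 6 endothelial markers that passed the filter averaged -0.46 in Tucker and -0.55 in Joey, after centring, and -0.40 to 0.69 in the others, and the 6 leukocyte markers 0.21 and 0.027 against -0.59 to 0.35. The 10 fibroblast and mural markers averaged 0.013 and -0.20 against -1.07 to 0.58, lowest in CHAD-G4 and Dal-4. Of the striated muscle, erythroid and neuronal markers, 4 of 8, 2 of 5 and 1 of 5 passed the filter. The 9 proliferation genes averaged -1.62 in Tucker, -0.73 in Joey and -0.87 to 1.61 in the other 8 dogs. Joey was inside that range, with CHAD-P9 at -0.87 and CHAD-G8 at -0.73, and Dal-4 was highest. The part of RNA quality, cell makeup and growth in the low signals of these dogs was not tested.

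**Figure D4:**
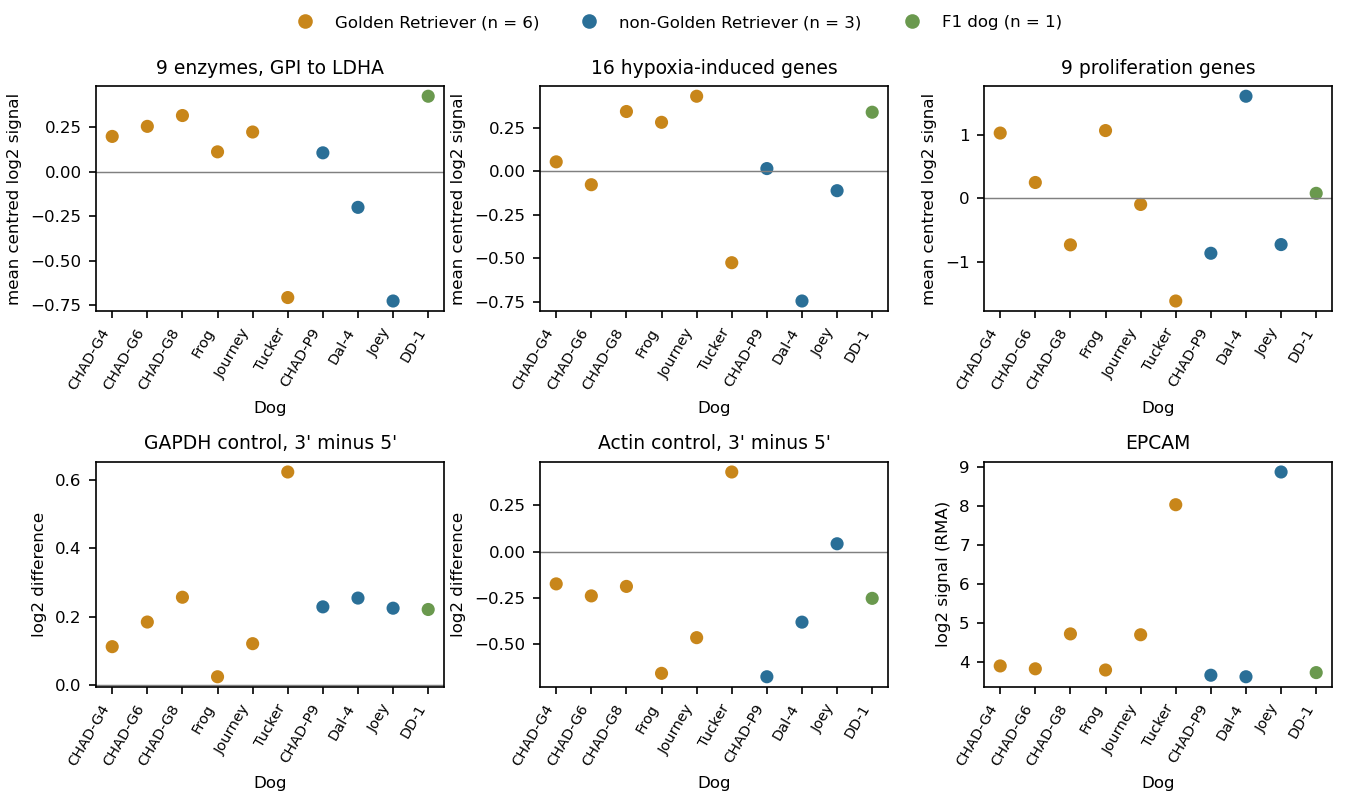
For each dog, colored by group, the mean centred log2 signal of 9 glycolytic enzymes, 16 hypoxia-induced genes and 9 proliferation genes (upper panels), and the 3′ minus 5′ log2 difference of the GAPDH and actin control probe sets and the log2 signal of EPCAM (lower panels). Tucker and Joey are lowest for the 9 enzymes and highest for EPCAM and the actin contrast; Tucker alone is high for the GAPDH contrast, and Dal-4 is lowest for the hypoxia-induced genes.

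Co-variation was asked of 19 pairs of members, 9 that share a step and 10 that act at linked steps. Of these, 10 passed at an adjusted p under 0.05 (Pearson r, two-sided permutation test over 10 dogs with 100000 resamples), all with positive r: 8 of the 10 linked pairs and 2 of the 9 pairs at the same step. The strongest were neighbors at the end of the chain. They were ENO1 with PKM (r = 0.91, permutation p = 0.000920, adjusted 0.00583, and rho = 0.70, permutation p = 0.0307, adjusted 0.0749), PGAM1 with ENO1 (r = 0.90, permutation p = 0.000580, adjusted 0.00583, and rho = 0.85, permutation p = 0.00284, adjusted 0.0228) and PKM with LDHA (r = 0.90, permutation p = 0.000710, adjusted 0.00583, and rho = 0.73, permutation p = 0.0200, adjusted 0.0635). By rho, ENO1 with PKM and PKM with LDHA did not pass after adjustment. PGK1 with PGAM1 (r = 0.82, permutation p = 0.00466, adjusted 0.0148, and rho = 0.81, permutation p = 0.00691, adjusted 0.0263), PGK1 with PDK1 (r = 0.81, permutation p = 0.0108, adjusted 0.0257, and rho = 0.59, permutation p = 0.0801, adjusted 0.138) and ALDOA with TPI1 (r = 0.76, permutation p = 0.0233, adjusted 0.0442, and rho = 0.65, permutation p = 0.0490, adjusted 0.0931) also passed by r. By Spearman's rho, 5 of 19 pairs passed.

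Several of these pairs had a lower r without Tucker and Joey. Without them, over 8 dogs, 0 of 19 pairs passed (exact permutation test). Fewer dogs give a larger p at the same r, here and below, so the count of 0 alone cannot show what rested on them. ALDOA with ALDOC (r = 0.88), SLC2A1 with HK2 (r = 0.76), LDHA with SLC16A3 (r = 0.79) and PGK1 with PDK1 (r = 0.77) kept r above 0.7. The first 3 of these and PGAM1 with ENO1 (r = 0.68) had an unadjusted p under 0.05, and PGK1 with PDK1 did not (exact permutation p = 0.102). PGK1 with PGAM1 went from r = 0.82 to r = 0.44 and ALDOA with TPI1 from r = 0.76 to r = 0.35. These changes in r were not tested, and PGK1 with PGAM1 had passed by rho over the 10 dogs. With the 2 dogs farthest from the median of each pair's first gene left out, 0 of 19 passed (exact permutation test); these were Tucker and Joey for 11 pairs. Among the pairs that had passed with other dogs left out, SLC2A1 with HK2 went to r = 0.50 without CHAD-G8 and Dal-4, and PFKL with PFKP stayed at r = 0.82 without Joey and Dal-4. Within the 6 Golden Retrievers, 0 of 19 passed after adjustment, and 2 did before it, PGAM1 with ENO1 (r = 0.95, exact permutation p = 0.00972) and PGK1 with PGAM1 (r = 0.89, exact permutation p = 0.0306). The 3 non-Golden Retrievers are too few for a value of their own.

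Over all 528 pairs of the 33 genes the median r was 0.28, and 24.4% were above 0.7; over all pairs of the 11143 genes that passed the filter the median was 0.0035, and 3.57% were above 0.7. Without Tucker and Joey these shares were 16.1% and 6.30%. All pairs share the same 10 arrays, and the values are a description. Measured against the mean of the 9 central enzymes (a gene's own signal left out), PFKFB3 (0.95), HK1 (0.94), SLC16A3 (0.93), PFKP (0.90) and PFKL (0.88) had r within the range of the enzymes themselves (0.69 for GAPDH to 0.96 for PKM). TKT (0.80), ALDOC (0.76) and PDK1 (0.74) were inside this range too, but below TPI1 (0.83), the next lowest enzyme after GAPDH. Without Tucker and Joey r was still 0.97 for PFKL, 0.96 for HK1 and 0.95 for ALDOA, was 0.80 in place of 0.36 for SLC2A1 and 0.91 in place of 0.74 for PDK1, and was lower for TPI1 (0.32 in place of 0.83) and PFKFB4 (0.035 in place of 0.68). PFKM (-0.067), ENO2 (-0.050), ENO3 (-0.056), PGAM2 (-0.083), PDK4 (0.060), PDHA1 (-0.092) and PGD (-0.14) had r between -0.14 and 0.060 over the 10 dogs. Without Tucker and Joey, r was -0.75 for PFKM, -0.48 for PDK4, -0.34 for ENO3, -0.16 for ENO2, -0.11 for PDHA1, 0.47 for PGAM2 and 0.49 for PGD, and PDHB had -0.62 in place of 0.44. PDK2 (-0.66) and SLC16A7 (-0.68) had negative r over the 10 dogs, and without Tucker and Joey -0.59 and -0.043. HK2 had 0.46 over the 10 dogs.

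**Figure D5:**
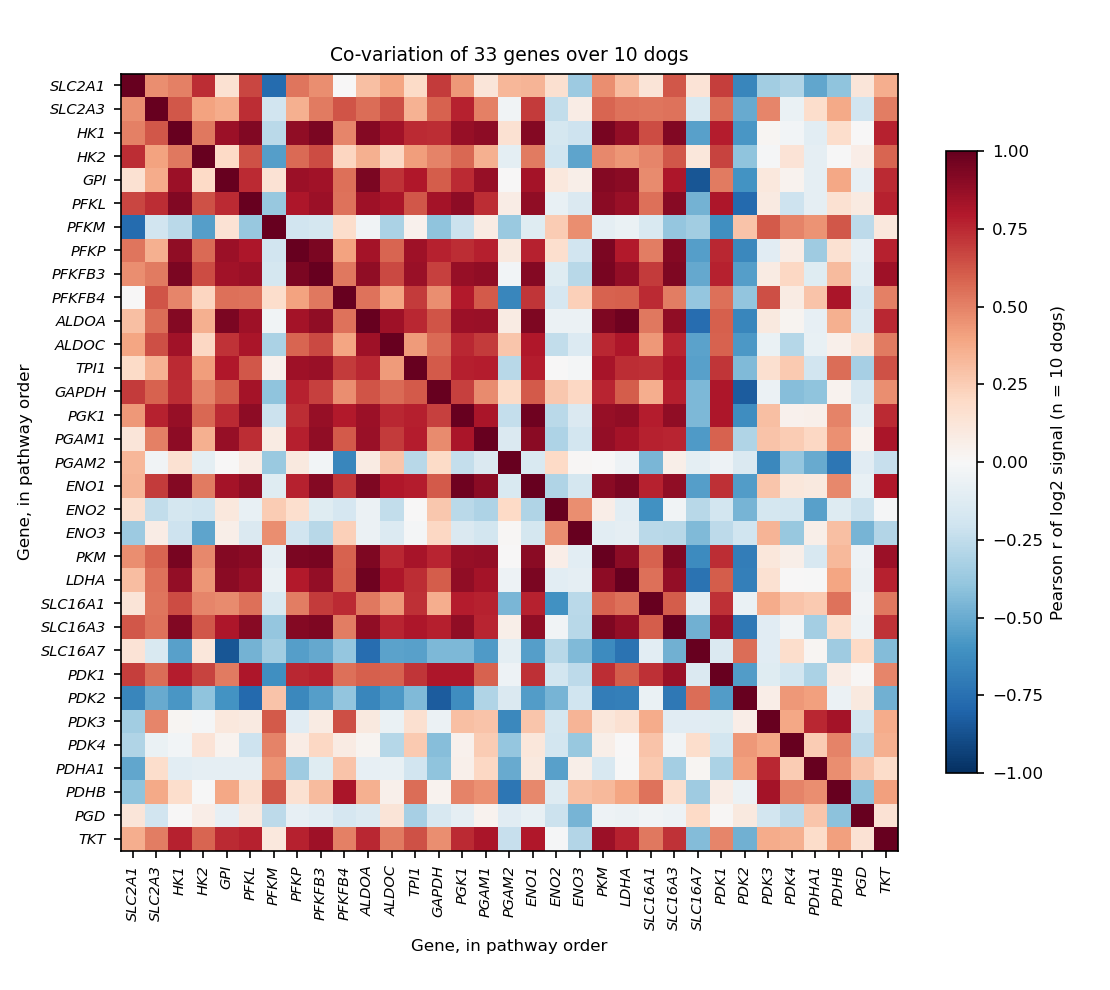
Pearson r between the log2 signals of each pair of the 33 tested genes over 10 dogs, genes in pathway order on both axes; red is positive and blue negative. A red block joins HK1, GPI, PFKL, PFKP and PFKFB3 with the enzymes from ALDOA to LDHA and with SLC16A3, while PFKM, PGAM2, ENO2, ENO3, SLC16A7, PDK2 and PGD stand outside it.

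The 10 genes outside the list whose signal was most like the mean of the central enzymes, among 11110 named genes that passed the filter, were PLP2, HELZ2, GABARAP, SDC4, FMN2, TNFRSF12A, AGPAT4, BUD23, PRSS23 and FLNA, with r from 0.95 for PLP2 to 0.91 for FLNA. Without Tucker and Joey r was 0.36 to 0.79. FMN2, an actin nucleator, had the widest range, 5.04 in Joey and 5.21 in Tucker against 6.92 to 9.83 in the others.

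A further 46 genes of glucose and pyruvate metabolism were listed. Of these 41 had a probe set of their own and 33 were tested: 0 passed the adjusted test, and at an unadjusted p under 0.05, 2 were higher and 2 lower in Golden Retrievers, beside 6.32% of all tested probe sets called in either direction. Their median difference was 0.077 against -0.017 over all tested probe sets. The 2 higher were PGLS, of the pentose phosphate branch (0.52, SE 0.177), and UGP2, of glycogen synthesis (0.74, SE 0.320). The 2 lower were PDP1, the phosphatase that undoes the work of the PDK kinases (-1.02, SE 0.332), and PDHX, a structural subunit of pyruvate dehydrogenase (-0.43, SE 0.189). Each of these 4 had an adjusted p of 0.774. FBP1, the phosphatase that runs the phosphofructokinase step backward in gluconeogenesis, was dim in CHAD-G4, CHAD-G6 and Dal-4 (4.45 to 4.65) and reached 12.73 in CHAD-G8. It was 9.98 in CHAD-P9 and 5.78 to 8.68 in the other 5 dogs. FBP2, the muscle form, was highest in the F1 dog (8.14) and Tucker (7.52). Forms of other steps were dim in all dogs, among them HKDC1, PFKFB1, LDHC and SLC2A12.

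The known regulators and hypoxia-induced genes gave no breed call either. Of 15 tested regulators 0 passed at an unadjusted p under 0.05 by limma, and of 16 hypoxia-induced genes outside the pathway 0 did. Over all tested probe sets 6.32% were called in this way, so in lists of this size 0 calls is near the background. Of the 16 hypoxia-induced genes, 12 lay higher in Golden Retrievers, with a median difference of 0.24, beside 47.2% and -0.017 over all tested probe sets. The mean centred signal of the 16 was -0.74 in Dal-4 and -0.52 in Tucker, -0.11 in Joey and -0.078 to 0.43 in the other 7 dogs. Dal-4 and Tucker, the lowest 2, were also the lowest 2 for PDK1. CA9, a carbonic anhydrase, was 5.65 in Dal-4 and 10.24 in CHAD-G4, ANKRD37 was 6.18 in Dal-4 and 10.21 in Journey, and EGLN3, an oxygen-sensing prolyl hydroxylase, was 3.97 in Dal-4 and 10.28 in CHAD-G8. HIF1A itself varied little, from 11.83 to 12.69, and EPAS1 from 4.92 in Dal-4 to 8.66 in CHAD-P9. Among the hypoxia-induced genes, AK4 (0.88), P4HA2 (0.85), NDRG1 (0.77) and P4HA1 (0.72) had the highest r with the mean of the 9 enzymes.

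The citrate cycle, which takes up pyruvate in the mitochondrion, had another order of dogs. Of 14 tested genes, 3 lay higher and 11 lower in Golden Retrievers, with a median difference of -0.17, and 1, DLST, had an unadjusted p under 0.05 (-0.54, SE 0.237, adjusted p = 0.774). Over all tested probe sets 6.32% were called in this way and 47.2% lay higher, so 1 call is near the background. Their mean centred signal was highest in Dal-4 at 0.46 and -0.29 to 0.20 in the other 9 dogs. IDH3A and IDH3B, 2 subunits of isocitrate dehydrogenase, were both highest in Dal-4, at 11.01 and 10.84. The median r of these genes with the mean of the 9 enzymes was 0.092, against 0.41 for the hypoxia-induced genes. A value of this size was not particular to the hypoxia-induced genes. The other lists ran from -0.061 for the epithelial markers to 0.71 for the 1 neuronal marker tested. Among them the endothelial markers had 0.56, the striated muscle markers 0.46 and the proliferation genes 0.37.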

How the data were processed

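RNA of cultured hemangiosarcoma cells was hybridized by the authors to Affymetrix Canine_2 arrays. The deposited log2 values came from RMA, run by the authors (the affy tool is named in the submitters' processing notes; versions are not given in the sources used here), which fits background and quantile-normalizes across arrays, so a shift common to all genes of a culture is removed. From 43035 rows, 111 control probe sets were left out, and 26891 of 42924 probe sets were tested, those that exceeded their array's 40th percentile in 3 or more of the 10 dogs. Names come from the platform annotation: 29254 probe sets had 1 gene, 439 several (not named) and 13231 none. Where a gene had several probe sets, that of highest mean was used.

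Breed differences were fitted with limma 3.58.1 (R 4.3.3), 6 Golden Retrievers against 3 non-Golden Retrievers with the F1 dog left out, two-sided, with Benjamini-Hochberg adjustment over all tested probe sets. The study's plain t-test ("the methods' t-test") and other settings were alternatives. An exact permutation test used all 84 splits, with a smallest p of 0.0119. Pair correlations used Python 3.11.15; below 10 dogs the permutations were exact. Of 21 listed pairs, 19 had both genes tested. Groups come from the labels, sexes from the study's signalment. The code was tested on simulated data. The members, pairs and gene lists were chosen with earlier results of these data known, so no count here is independent support. The named genes are all members with a probe set, up to 4 examples of each other list by size of difference and range, genes named because few passed, the tested members of a list with the highest r, and the 10 genes most like the 9 central enzymes; EPCAM, HIF1A, EPAS1 and EIF2S3 were named after their values were seen. The leaving out of Tucker and Joey together and the use of GAPDH control probe sets were also chosen after seeing the data. No sequence or genome coordinate is given. The number of arrays limits the precision, and a difference that did not pass is not shown to be absent.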

Additional observations from a re-analysis of the deposited data

Results flagged for a closer look

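Among the 6 Golden Retrievers, 9 of 34 genes had a lowest or highest dog whose gap to the next dog passed Dixon's critical value for 6 samples, where chance gives about 1 in 20 groups. Genes that move together are not separate cases. Tucker was the low dog for 7 of them: PFKFB3, at 7.41 against 9.01 in the next dog; ALDOA, at 12.19 against 13.02; TPI1, at 11.01 against 12.67; PGK1, at 11.59 against 12.98; ENO1, at 13.74 against 14.07; LDHA, at 13.08 against 13.57; and PDK1, at 8.08 against 10.57. Journey was the low dog for PDK2, at 5.68 against 6.73, and CHAD-G4 the high dog for PDK3, at 10.27 against 8.56. Non-Golden Retrievers were too few for this comparison.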

How the results depend on the processing

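The count of 0 members at an adjusted p under 0.05 held under all alternatives run, and the median difference of the members stayed positive, at 0.16 to 0.47. Members at an unadjusted p under 0.05, 2 in the analysis as reported, were 1 by the methods' t-test, 0 among males, 6 without Tucker and Joey, and 1 to 11 when 1 dog at a time was left out, with 11 without Tucker. The share of all tested probe sets called in these settings ran from 3.6% to 11.7%. Pairs past the test, 10 as reported, were 5 by Spearman's rho, 0 within the Golden Retrievers, 0 without Tucker and Joey, and 6 to 13 with 1 dog left out (6 without Tucker). The counts over fewer dogs also hold the larger p that fewer dogs give at the same r. No paired analysis was possible because the breed groups hold different dogs and the labels do not pair them.

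Of 516 recomputed differences of single members, 46 changed sign, in 13 members whose difference as reported was below 1 SE; the cause was not tested. Among males, the difference was -0.067 for PFKFB4, -0.31 for TPI1, -0.24 for SLC16A1, -0.11 for PDK1 and 0.31 for PDK4. Without Tucker and Joey it was -0.10 for PGAM2 and 0.13 for SLC16A7. By the second probe set it was 0.33 for ENO2 and -0.38 for PDHA1. With arrays centred on their median it was 0.057 for ENO2, and with the F1 dog as a Golden Retriever -0.013 for PDK3. With 1 dog left out at a time the differences ran from -0.47 to 0.28 for PFKM, -0.058 to 0.22 for PFKFB4, -0.29 to 0.36 for TPI1, -0.016 to 0.29 for GAPDH, -0.082 to 0.14 for PGAM2, -0.25 to 0.16 for ENO2, -0.17 to 0.47 for SLC16A1, -0.33 to 0.16 for SLC16A7, -0.25 to 1.03 for PDK1, -0.30 to 0.28 for PDK3, -0.75 to 0.75 for PDK4, -0.11 to 0.23 for PDHA1 and -0.32 to 0.19 for PDHB.

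For pairs, r of PFKFB3 and PFKFB4 was -0.35 without Tucker and Joey, r of ENO1 and ENO2 was 0.018 by the second probe set, and r of PDK1 and PDK3 was 0.11 within the Golden Retrievers. For PGD and TKT, rho was -0.030 and r within the Golden Retrievers was -0.51. With 1 dog left out, r ran from -0.47 to 0.053 for PDK1 and PDK3 and from -0.30 to 0.31 for PGD and TKT. Of the 10 pairs that passed, 6 passed with each dog left out in turn: PFKL with PFKP, ALDOA with ALDOC, PGAM1 with ENO1, ENO1 with PKM, PKM with LDHA, and LDHA with SLC16A3. Of the 20 genes with a second tested probe set, only ENO2 and PDHA1 had probe sets whose differences had opposite signs. With the GAPDH control probe set in place of the gene's own, GAPDH with PGK1 passed as well (r = 0.70).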

Other observations

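Dal-4, with the highest PFKM, also had high signals of several genes around the mitochondrion. PDP1, GPD2, GOT1 and DLAT, which act in pyruvate and NADH handling, were all highest in Dal-4, at 8.45, 7.84, 11.35 and 9.51, against next highest values of 7.87, 7.39, 10.13 and 8.92. These 4 genes were picked from the list after their values were seen, and the same dog had the highest signal of 20.1% of all tested probe sets. TXNIP, an inhibitor of glucose uptake that glucose itself induces, had 6.35 in Journey and 10.64 in CHAD-G6, and its paralog ARRDC4 was also lowest in Journey at 4.82. Joey had the second lowest TXNIP, at 6.70, and Tucker the second lowest ARRDC4, at 4.90.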
